A study of Mus musculus with 30 samples.

Results

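The 10 genes described here make and sense the glutamate signal of excitatory synapses: the vesicular glutamate transporters Slc17a6, Slc17a7 and Slc17a8, the NMDA receptor subunits Grin1, Grin2a and Grin2b, and the AMPA receptor subunits Gria1, Gria2, Gria3 and Gria4. They were chosen by name, 10 of 45706 genes in the expression files, and all 10 were found. The study asked how neuronal genes depend on Mnx1, or Hb9, a homeodomain factor that motor neurons use in their differentiation. RNA was sequenced in 8 libraries of 4 groups with 2 libraries each: motor neurons of the lines HD and EH, which the labels both give as Mnx1KO, wild-type motor neurons, and wild-type mouse embryonic stem (ES) cells. Every motor neuron culture was taken on day 6, after growth as embryoid bodies and exposure to 1 µM retinoic acid, SAG (which activates Smoothened), doxycycline and 5 µM DAPT (which blocks Notch signalling). Chromatin immunoprecipitation (ChIP-seq) covered 5 histone marks in HD and wild-type motor neurons, and Mnx1 in wild type; EH was not profiled by ChIP. The labels describe neither the deletions nor what HD and EH stand for, nor state that replicates came from separate cultures, so errors and p-values cover the spread between these libraries.

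A vesicular transporter loads glutamate into synaptic vesicles, so its presence marks a cell that can release glutamate. Released glutamate opens AMPA receptors, tetramers of Gria subunits that carry fast currents, and NMDA receptors, which pair the obligatory Grin1 subunit with Grin2 subunits and let calcium in. Spinal motor neurons are cholinergic cells that receive glutamate from premotor neurons, and Gria2, whose RNA is edited, keeps AMPA receptors nearly closed to calcium.

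Library depth was 11.2 and 12.4 M (mega-counts) of expected counts in HD, 39.8 and 39.7 M in EH, 13.9 and 13.9 M in wild-type motor neurons, and 53.2 and 51.3 M in ES cells. EH and ES libraries were thus deeper than those of HD and wild-type motor neurons. In comparisons of EH or ES cells with these, group and depth cannot be told apart. Summed over 8 motor neuron markers, levels ranged from 1448.5 to 2373.8 TPM (a transcript level scaled for gene length and library size) in the motor neuron libraries and were 5.8 and 6.2 TPM in ES cells. Mnx1 itself had 376.72 and 312.48 TPM in HD, 446.11 and 564.55 TPM in EH, and 395.15 and 343.35 TPM in wild type, so the gene level does not show the knockout in either line; which part of the gene was altered is not given in the labels.

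Levels in wild-type motor neurons spanned a wide range, with the AMPA subunits Gria2, Gria4 and Gria3 at the top and the transporters Slc17a8 and Slc17a6 at the bottom. Gria2 led with 48.89 and 31.89 TPM, followed by Gria4 with 31.02 and 27.19 TPM, Gria3 with 16.23 and 15 TPM and Grin1 with 9.88 and 8.58 TPM. Gria2 and Gria4 did not overlap, but the gap between them was smaller than the spread of Gria2. Grin2a, a subunit typical of mature synapses, had 3.57 and 3.66 TPM, above Grin2b, the subunit of young synapses, at 1.12 and 1.52 TPM. Slc17a7 at 1.12 and 0.84 TPM touched the range of Grin2b. Gria1 followed at 0.7 and 0.68 TPM, and the levels of Slc17a8 (0.15 and 0.29 TPM) and Slc17a6 (0.09 and 0.06 TPM) were the lowest of the 10.

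**Figure D1:**
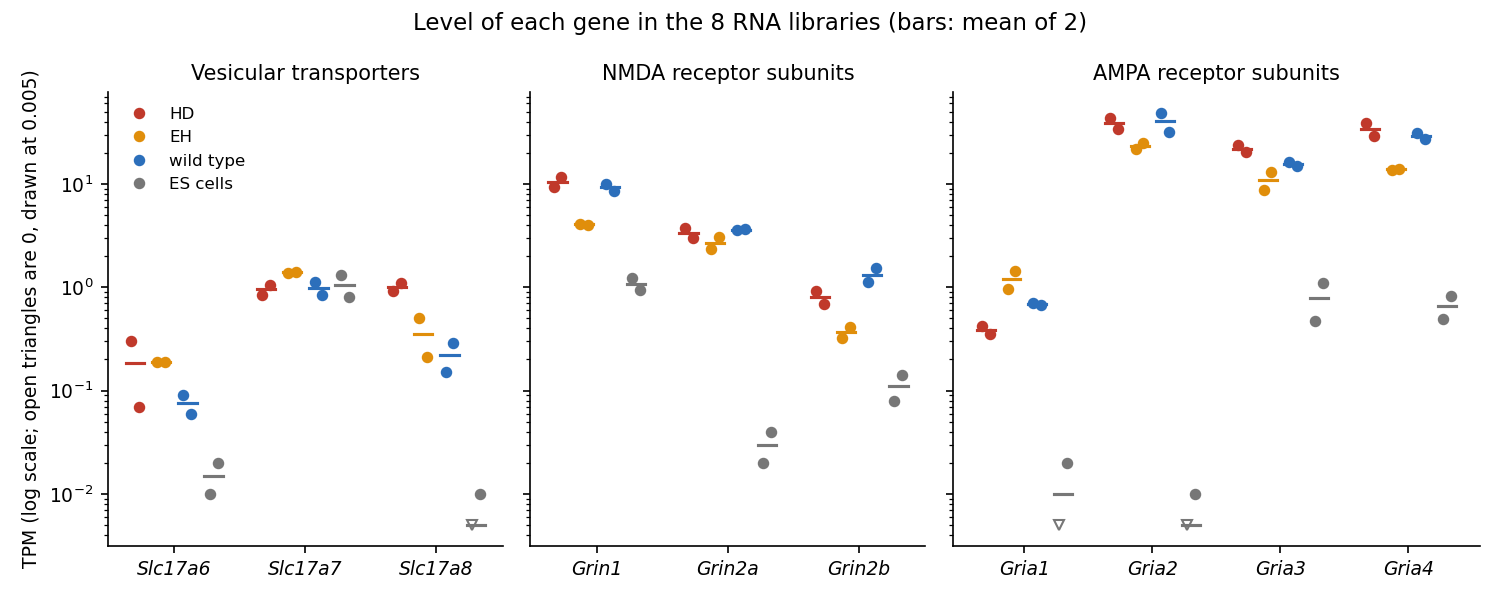
Level in TPM, on a log scale, of each gene in the 8 RNA libraries, with HD, EH, wild-type motor neurons and ES cells from left to right. Points are libraries and bars are means of 2. Gria2, Gria3 and Gria4 stand highest among motor neurons, EH points of Grin1, Gria2 and Gria4 lie below both other motor neuron groups, and the transporters stay at or below 1.4 TPM.

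Within the AMPA family, Gria2 made up 40.8 and 40.9% of the summed TPM in HD, 48.3 and 47.0% in EH, and 50.5 and 42.7% in wild type. Gria1 made up 0.395 and 0.417% in HD, 2.15 and 2.72% in EH, and 0.723 and 0.91% in wild type. Gria1 was thus the smallest share of the family in each motor neuron library, with the EH libraries above the others. The family summed to 106.32 and 83.86 TPM in HD, 45.18 and 53.36 TPM in EH, and 96.84 and 74.76 TPM in wild type. The NMDA subunits summed to 13.91 and 15.28 TPM in HD, 6.76 and 7.48 TPM in EH, and 14.57 and 13.76 TPM in wild type. Both sums were lower in both EH libraries than in any other motor neuron library. The 3 transporters together reached 2.07 and 2.24 TPM in HD, 2.07 and 1.8 TPM in EH, and 1.36 and 1.19 TPM in wild type.

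The start regions of the genes differ in base composition, and 3 are shown as examples of starts with different marks. The window of 250 bases before to 50 after the start (RefSeq, GRCm38.p6) is given 5′ to 3′ on the gene's strand, with each CG pair in capitals. The start of Grin1 (chr2:25319138-25319437, minus strand) carried H3K4me3 and H3K27me3, that of Gria2 (chr3:80802786-80803085, minus strand) H3K4me3 and H3K27ac, and the first start of Slc17a8 (chr10:89621200-89621499, minus strand) none of these 3 marks in HD or wild type. Gria2 also had H3K27me3 in wild type alone.
Grin1: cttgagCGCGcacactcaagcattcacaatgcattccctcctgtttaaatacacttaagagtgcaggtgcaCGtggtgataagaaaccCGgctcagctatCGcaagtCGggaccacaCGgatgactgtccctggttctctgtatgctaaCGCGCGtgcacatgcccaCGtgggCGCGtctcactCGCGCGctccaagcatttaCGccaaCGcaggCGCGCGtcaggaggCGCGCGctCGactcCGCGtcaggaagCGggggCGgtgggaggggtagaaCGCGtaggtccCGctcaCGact
Gria2: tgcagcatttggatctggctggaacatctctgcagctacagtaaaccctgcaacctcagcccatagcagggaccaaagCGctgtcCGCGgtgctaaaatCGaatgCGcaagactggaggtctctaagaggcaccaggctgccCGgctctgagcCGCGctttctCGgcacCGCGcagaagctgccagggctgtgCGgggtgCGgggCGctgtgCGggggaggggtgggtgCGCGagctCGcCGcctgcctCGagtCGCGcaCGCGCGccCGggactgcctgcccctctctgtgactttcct
Slc17a8: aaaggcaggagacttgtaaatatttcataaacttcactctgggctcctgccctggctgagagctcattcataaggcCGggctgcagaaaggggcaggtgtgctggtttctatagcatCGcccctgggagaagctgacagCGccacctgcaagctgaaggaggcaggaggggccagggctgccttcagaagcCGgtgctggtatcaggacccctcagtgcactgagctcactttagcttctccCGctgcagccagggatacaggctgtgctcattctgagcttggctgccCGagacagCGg
Grin1 had 33 CG pairs, more than 91.4% of the 32851 windows in the table, and Gria2 had 26, more than 83.1%. The first window of Slc17a8 had 7, the median of all windows. Among the other starts, Gria4 had 17, Slc17a7 13, and the 2 starts of Slc17a6 8 and 3. The letters TAATTA, the core that homeodomain factors of this class bind, were searched on both strands. They occurred in the second windows of Slc17a6 and Slc17a8 and in none of the other 6 windows of members, against 5.29% of all windows. Grin2a, Grin2b, Gria1 and Gria3 have no window in the table.

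The first comparison set wild-type motor neurons against ES cells, and most members rose with the induction. With edgeR's quasi-likelihood test at a Benjamini-Hochberg adjusted p under 0.05, 8 of 10 were higher in motor neurons and 0 lower. Over all 17771 genes tested, 38.8% were higher and 36.5% lower. The median log2 fold change of the 10 was 3.98, and 4.22 with the genes of 1 to 3 counts set at their count ratio, against 0.02 over all genes tested.

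Gria2 went furthest: it had 48.89 and 31.89 TPM in motor neurons, against 0 and 0.01 TPM in ES cells. The ES libraries held 2 counts in all and the motor neuron libraries 2958, a ratio of 5560 with an exact 95% interval of 1540 to 45900 that covers counting error only. Grin2a had 3.57 and 3.66 TPM in motor neurons, against 0.02 and 0.04 TPM in ES cells. Its log2 fold change was 7.28 ± 0.29 (SE; edgeR adjusted p = 2.83e-07). Motor neuron and ES libraries were far apart for both genes. Gria4, at 31.02 and 27.19 TPM against 0.49 and 0.82 TPM, had a log2 fold change of 5.1 ± 0.28 by edgeR (adjusted p = 1.22e-06). Gria3, at 16.23 and 15 TPM against 0.47 and 1.09 TPM, changed by 3.86 ± 0.31 on the log2 scale (edgeR adjusted p = 9.31e-06).

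The other receptor subunits rose from low levels. Gria1 had 0.7 and 0.68 TPM in motor neurons and 0 and 0.02 TPM in ES cells, with a log2 fold change of 4.46 ± 0.65 by edgeR (adjusted p = 0.00031). Grin2b changed by 3.97 ± 0.22 (edgeR adjusted p = 1.41e-06) to levels of only 1.12 and 1.52 TPM, against 0.08 and 0.14 TPM in ES cells. Grin1 had the highest mean TPM of the subunits in ES cells, with 9.88 and 8.58 TPM in motor neurons against 1.22 and 0.93 TPM in ES cells, a log2 fold change of 2.32 ± 0.19 by edgeR (adjusted p = 9.95e-06). The motor neuron libraries lay above the ES libraries for all 7 subunits, but the share of all genes separated in this way was not computed. Grin1 overlaps Grin1os, an antisense RNA, and the labels do not say whether counting used strand.

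The transporters did not share one direction. Slc17a8, the transporter found also in some cholinergic and serotonergic neurons, rose in the test (edgeR adjusted p = 0.00248), with 12 counts in motor neurons against 2 in ES cells, a ratio of 22.5 with an exact 95% interval of 5.02 to 207. With limma on log2(TPM + 1) the call ended (0.28, adjusted p = 0.221), and Slc17a8 did not enter the test when motor neurons of wild type and ES cells were fitted alone. Slc17a7, the main transporter of the cortex, had 1.12 and 0.84 TPM in motor neurons and 1.31 and 0.8 TPM in ES cells, and these ranges overlapped. Its log2 fold change of -0.74 ± 0.34 did not pass (edgeR adjusted p = 0.0743), and passed as lower without ES replicate 2 at -1.08 (edgeR adjusted p = 0.0187). Slc17a6, the main transporter of the spinal cord and brainstem, had 3 and 2 counts in motor neurons and 1 and 3 counts in ES cells, with a log2 fold change of 1.86 ± 0.99 that did not pass either (edgeR adjusted p = 0.121).

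In HD motor neurons, 0 of the 9 members tested differed from wild type by edgeR's quasi-likelihood test, against 0.135% of all 15565 genes higher and 0.0385% lower. DESeq2 called 0 members and 174 of all genes. At an unadjusted p under 0.05 there were 2 members, Slc17a8 and Gria3. The share of all genes at that unadjusted p was not computed, so this count is not a result about the members. The median log2 fold change of the 9 was -0.03, against -0.01 over all genes tested. Slc17a6 did not pass the filter on low counts among motor neurons, with 8 and 2 counts in HD, 19 and 18 in EH, and 3 and 2 in wild type.

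Slc17a8 had the widest gap in HD. It reached 0.92 and 1.11 TPM in HD, against 0.15 and 0.29 TPM in wild type, from 20 and 34 counts against 5.1 and 7. Both HD libraries lay above both wild-type libraries. The log2 fold change was 2.41 ± 0.55 with an edgeR adjusted p of 0.275. Slc17a8 passed the filter on low counts through both HD libraries and 1 EH library, not through wild type. The summed level of 5 inhibitory neuron markers was also higher in HD, at 12.0 and 8.2 TPM against 3.4 and 4.6 TPM in wild type. Gad1, Gad2 and Slc6a5 carried that sum, Pax2 and Slc32a1 had lower levels in HD, and of the 4 tested 0 passed by edgeR. The sum of 8 excitatory interneuron markers was 3.8 and 7.4 TPM in HD against 6.0 and 3.9 TPM in wild type. Slc32a1, the vesicular transporter of inhibitory neurons, stayed at or below 0.23 TPM in all motor neuron libraries. The part of other cell types in the level of Slc17a8 was not tested.

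The receptor subunits of HD did not differ from wild type by the test, within limits that the intervals set. Gria3 had 23.52 and 20.27 TPM in HD and 16.23 and 15 TPM in wild type, with the HD libraries higher, but its log2 fold change of 0.48 ± 0.19 did not pass (edgeR adjusted p = 0.821). Grin1 had 9.27 and 11.58 TPM in HD and 9.88 and 8.58 TPM in wild type, Gria2 43.43 and 34.26 against 48.89 and 31.89 TPM, and Gria4 38.95 and 28.98 against 31.02 and 27.19 TPM, all with overlapping ranges. The 95% intervals of the log2 fold changes ran from -0.14 to 0.56 for Grin1, -0.48 to 0.38 for Grin2a, -0.53 to 0.46 for Gria2 and -0.12 to 0.54 for Gria4. Grin2b had 0.91 and 0.69 TPM in HD, below the 1.12 and 1.52 TPM of wild type, with a log2 interval of -0.83 to 0.08. Gria1 had 0.42 and 0.35 TPM in HD against 0.7 and 0.68 TPM in wild type, while its counts of 14 and 13 against 25 and 13 overlapped. The log2 interval of Gria1 was the widest of the subunits, from -1.35 to 0.9.

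In EH motor neurons the picture was different: 4 members fell and 1 rose of the 9 tested. Over all 15565 genes tested by edgeR, 11.6% were lower and 9.62% higher in EH than in wild type. DESeq2 called 4 lower and 0 higher. The members' median log2 fold change was -0.55, against 0 over all genes tested.

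**Figure D2:**
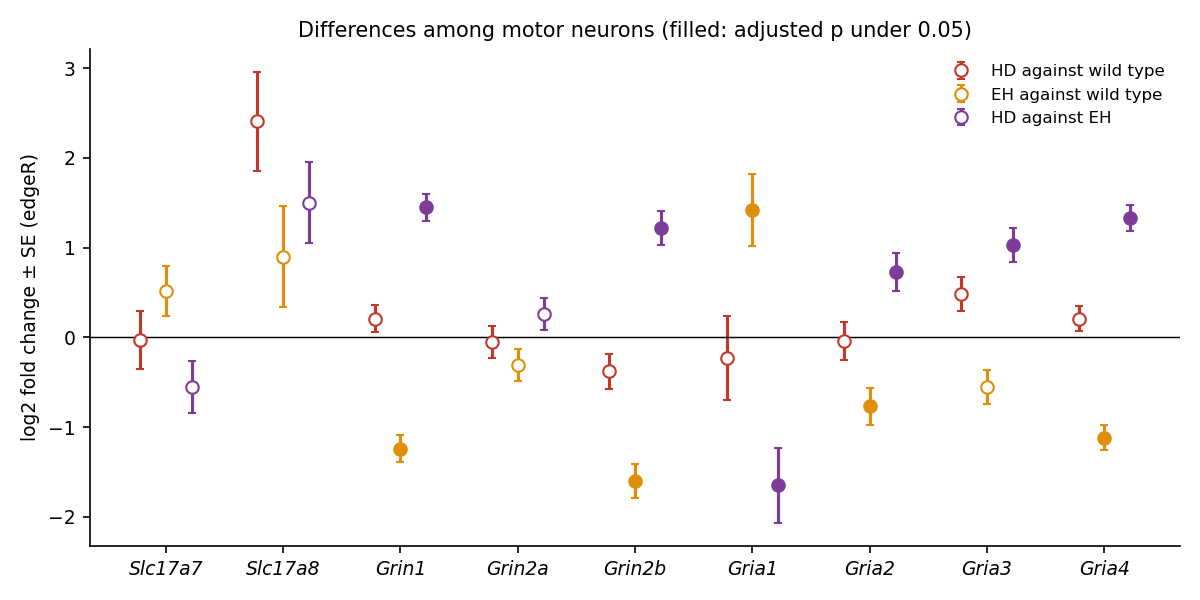
Log2 fold change with its standard error for the 9 genes tested among motor neurons, for HD against wild type, EH against wild type and HD against EH. Filled points have an edgeR adjusted p under 0.05. Grin1, Grin2b, Gria2 and Gria4 are below 0 and Gria1 above 0 in EH against wild type, while no HD point against wild type is filled.

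The 2 NMDA subunits Grin1 and Grin2b fell most. Grin1 had 4.12 and 4 TPM in EH, against 9.88 and 8.58 TPM in wild type, with no overlap. Its log2 fold change was -1.24 ± 0.15, a level 2.36-fold lower (edgeR adjusted p = 0.0059). Grin2b had 0.32 and 0.41 TPM in EH, against 1.12 and 1.52 TPM in wild type, again without overlap, and fell by 1.6 ± 0.19 on the log2 scale (edgeR adjusted p = 0.00579). With limma on log2(TPM + 1) the call of Grin2b ended (-0.76, adjusted p = 0.0869), as it did with log2(TPM + 0.1) (-1.6, limma adjusted p = 0.0823). Grin2a, at 2.32 and 3.07 TPM in EH against 3.57 and 3.66 TPM in wild type, had a log2 fold change of -0.31 ± 0.18 that did not pass (edgeR adjusted p = 0.244), and passed without EH replicate 2 at -0.52 (edgeR adjusted p = 0.0334).

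Among AMPA subunits, Gria4 had 13.69 and 13.93 TPM in EH, against 31.02 and 27.19 TPM in wild type. Its libraries were well separated and its log2 fold change was -1.12 ± 0.14 (edgeR adjusted p = 0.00612). Gria2 had 21.82 and 25.09 TPM in EH, against 48.89 and 31.89 TPM in wild type, and fell by 0.77 ± 0.21 on the log2 scale (edgeR adjusted p = 0.0418). In TPM the wild-type libraries of Gria2 were further apart than those of the other AMPA subunits. In counts those of Gria1, at 25 and 13, were further apart for their level than those of Gria2, at 1783.5 and 1174. Gria3, at 8.7 and 12.89 TPM in EH against 16.23 and 15 TPM in wild type, had a log2 fold change of -0.55 ± 0.19 that did not pass (edgeR adjusted p = 0.0789), and passed without EH replicate 2 at -0.84 (edgeR adjusted p = 0.00353).

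Gria1 rose in EH by edgeR, a call that ended with DESeq2 (adjusted p = 0.0562). It had 0.97 and 1.45 TPM in EH, against 0.7 and 0.68 TPM in wild type, from 112 and 174 counts against 25 and 13. The libraries did not overlap in TPM, and the log2 fold change was 1.42 ± 0.4 (edgeR adjusted p = 0.0465). That fold of 2.68 is larger than the ratio of the mean TPM values, 1.75, and with limma on log2(TPM + 0.1) the change was 0.71 (adjusted p = 0.378). Of the transporters, Slc17a7 had 1.38 and 1.4 TPM in EH against 1.12 and 0.84 TPM in wild type, and Slc17a8 0.5 and 0.21 against 0.15 and 0.29 TPM; neither passed (edgeR adjusted p = 0.231 and 0.286).

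The calls of Gria1 and Gria2 in EH ended when EH and wild type were fitted without HD (edgeR adjusted p = 0.0822 and 0.0583), without either HD replicate (from 0.0603 to 0.0856), and for Gria1 without EH replicate 2 (0.0925) and for Gria2 without EH replicate 1 (0.0514). Without either wild-type replicate 0 of the 5 calls remained, with edgeR adjusted p from 0.0545 to 0.244. Markers of other cell types moved with the members: all 6 trophoblast markers were lower in EH, summing to 745.1 and 473.6 TPM against 1644.3 and 1839.5 TPM in wild type, and 1 of 7 pan-neuronal markers was lower. Of the 5 inhibitory markers, Gad1 (log2 fold change -2.82, edgeR adjusted p = 0.00662) and Pax2 (-2.31, 0.0059) were lower. Gad2 (-0.58) and Slc6a5 (0.35) did not pass, and Slc32a1 was not tested. Of the 6 neural progenitor markers, Fabp7 (3.33, edgeR adjusted p = 0.0144) and Nkx6-1 (0.81, 0.0207) were higher. Sox2 (1.07), Nes (-0.3) and Olig2 (-1.93) did not pass, and Hes5 was not tested. Trophoblast markers, such as Tpbpa at 31.27 and 4.14 TPM in EH against 255.72 and 203.34 TPM in wild type, differed between the EH replicates too. The pan-neuronal sum was 2548.1 and 3368.8 TPM in EH against 3273.3 and 3167 TPM in wild type, and the motor neuron sum 1937.1 and 2373.8 TPM against 1821 and 1491.5 TPM. Their part in the results was not tested, and in these bulk samples fewer cells of a type and less RNA per cell cannot be told apart.

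HD and EH were then compared directly, which tests whether the libraries of these lines differ. Depth differed between them as well, so line and depth cannot be told apart. Of the 9 members, 5 were higher and 1 lower in HD than in EH, against 11.8% and 9.42% of all genes tested by edgeR. The median log2 fold change was 1.03, against -0.01 over all genes. Grin1 had 9.27 and 11.58 TPM in HD, against 4.12 and 4 TPM in EH, with a log2 fold change of 1.45 ± 0.15 by edgeR (adjusted p = 0.00365). Gria4 had 38.95 and 28.98 TPM in HD, against 13.69 and 13.93 TPM in EH, a change of 1.33 ± 0.14 (edgeR adjusted p = 0.00384). The HD libraries lay above the EH libraries for both.

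Grin2b (1.22 ± 0.19, edgeR adjusted p = 0.00919), Gria3 (1.03 ± 0.19, edgeR adjusted p = 0.0132) and Gria2 (0.73 ± 0.21, edgeR adjusted p = 0.0485) were also higher in HD. Gria1 was lower in HD, with 0.42 and 0.35 TPM against 0.97 and 1.45 TPM in EH and a log2 fold change of -1.65 ± 0.42 by edgeR (adjusted p = 0.0346). No HD and EH library overlapped for these 4 genes, and the share of all genes without overlap was not computed. With limma on log2(TPM + 1) the calls of Grin2b, Gria1 and Gria2 ended (adjusted p = 0.298, 0.116 and 0.0939). Slc17a8 had 0.92 and 1.11 TPM in HD against 0.5 and 0.21 TPM in EH, and its log2 fold change of 1.5 ± 0.45 did not pass (edgeR adjusted p = 0.0558). Without an HD replicate the calls of Gria1, Gria2 and Gria3 ended (edgeR adjusted p from 0.068 to 0.241), and that of Grin2b without HD replicate 1 (0.0602). The call of Gria1 also ended without EH replicate 2 (0.0549) or a wild-type replicate (0.0527 and 0.0519), and that of Gria2 without EH replicate 1 (0.067). Grin2a passed without EH replicate 2 (0.47, edgeR adjusted p = 0.0446). All 6 trophoblast markers and 4 of 5 inhibitory markers were higher and 5 of 8 motor neuron markers lower in HD than in EH; their part in these differences was not tested.

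With HD and EH averaged and set against wild type, 0 of 9 members passed by edgeR, against 0.283% of all genes higher and 0.533% lower. At an unadjusted p under 0.05 there were 4, with the share of all genes not computed. DESeq2 called 2, Grin2b and Gria4, and 976 of all genes, against 127 of all genes by edgeR. Fits without an EH replicate leave 1 EH library, and the members named for them were picked by their result in those fits. Without EH replicate 1 the log2 fold changes were -0.52 for Grin1, -0.94 for Grin2b and -0.44 for Gria4. Without EH replicate 2 they were -0.49 for Grin1, -1.03 for Grin2b and 1.87 for Slc17a8. Grin2b came nearest, with a log2 fold change of -0.99 ± 0.16 by edgeR (adjusted p = 0.0516); it was lower than wild type in all 4 knockout libraries. The mean joins lines that differed for 6 members, Grin1 for one having -0.51 ± 0.13 (edgeR adjusted p = 0.102) from 0.21 ± 0.15 in HD and -1.24 ± 0.15 in EH.

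The wider glutamate system was followed in 58 more genes: other receptor subunits, auxiliary subunits, scaffold proteins, and enzymes and carriers of glutamate. In wild-type motor neurons 43 of 55 tested by edgeR were higher than in ES cells and 7 lower, against 38.8% and 36.5% of all genes tested, with a median log2 fold change of 2.74. All 7 kainate and delta receptor genes were higher, among them the delta receptor Grid1 at 24.12 and 24.37 TPM against 0.12 and 0.08 TPM in ES cells (7.21 ± 0.28, edgeR adjusted p = 2.72e-07). Of 13 auxiliary subunits of AMPA and kainate receptors, 9 rose and 2 fell, Cacng7 (-0.46 ± 0.17, edgeR adjusted p = 0.0337, with overlapping libraries) and Cacng8 (-1.67 ± 0.41, edgeR adjusted p = 0.00592), both named after their values were seen. Stargazin, Cacng2, had 13.91 and 12.37 TPM in motor neurons and 0 counts in ES cells, at least 1420-fold higher if the ES group is set at a floor of 3 counts. Cacng4 had 96.65 and 80.53 TPM in motor neurons against 0.85 and 0.69 TPM in ES cells, and the cornichon Cnih2 155.14 and 151 TPM against 3.08 and 3.45 TPM. Their log2 fold changes were 6.52 ± 0.19 and 4.91 ± 0.14, with an edgeR adjusted p of 1.16e-07 each. The scaffold gene Shank2, at 8.12 and 8.45 TPM against 0.18 and 0.21 TPM, rose by 4.83 ± 0.18 (edgeR adjusted p = 2.36e-07).

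In HD, 0 of 49 wider genes tested by edgeR differed from wild type, against 0.135% of all genes higher and 0.0385% lower. DESeq2 called 2 of them and 174 of all genes. At an unadjusted p under 0.05 there were 7, with the share of all genes not computed. The median log2 fold change was 0.09. In EH, 11 fell and 4 rose, against 11.6% and 9.62% of all genes, with a median of -0.17; when EH and wild type were fitted alone 9 passed, and without either wild-type replicate 1 passed. The genes that fell included Cnih2, at 68.18 and 81.85 TPM in EH against 155.14 and 151 TPM in wild type (-1.01 ± 0.11, edgeR adjusted p = 0.00492), and Cacng2, at 6.36 and 8 TPM against 13.91 and 12.37 TPM (-0.85 ± 0.14, edgeR adjusted p = 0.0102). The EH libraries of both lay below the wild-type ones. The postsynaptic scaffolds Shank1 (-1.27 ± 0.15, edgeR adjusted p = 0.0059) and Dlgap3 (-0.86 ± 0.13, edgeR adjusted p = 0.00854) fell as well, among 5 of 18 scaffold genes lower and 1 higher.

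**Figure D3:**
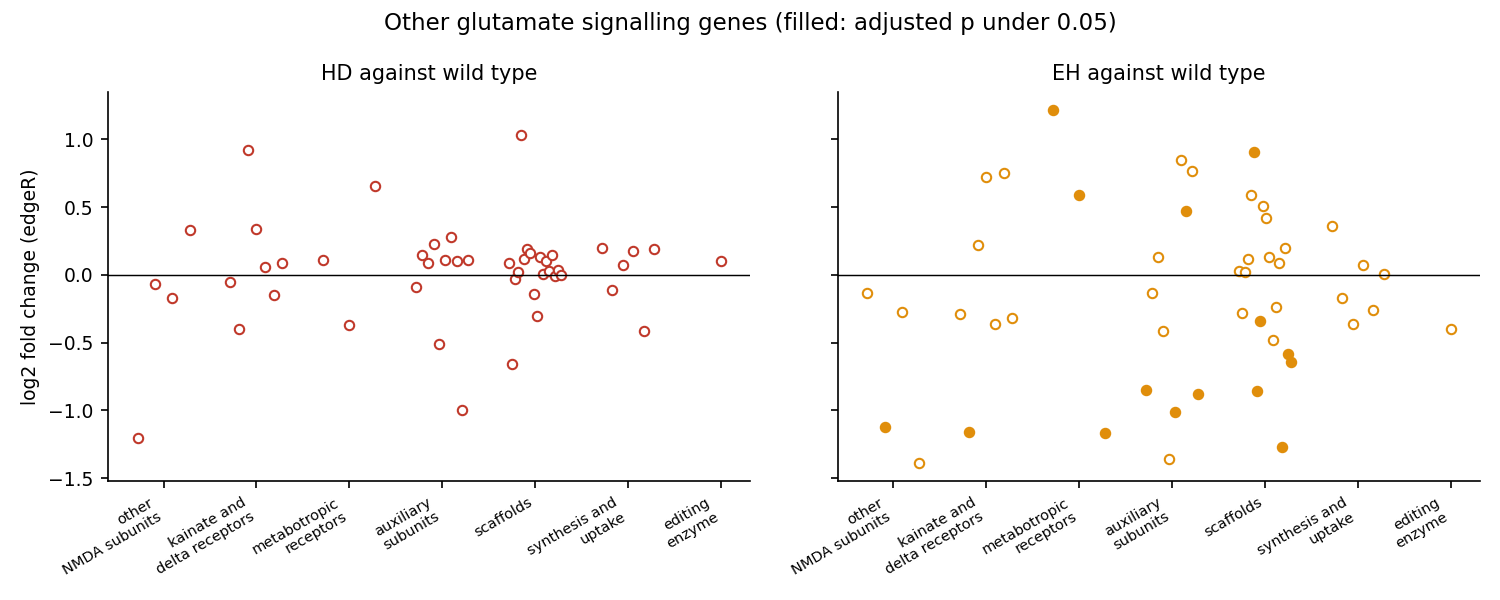
Log2 fold change of the wider glutamate genes that were tested, by class, for HD against wild type on the left and EH against wild type on the right. Each point is a gene and filled points have an edgeR adjusted p under 0.05. None of 49 is filled for HD, and 15 are filled for EH, 11 of them below 0.

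Between the lines, 13 of the 49 wider genes were higher and 6 lower in HD than in EH, against 11.8% and 9.42% of all genes. Cnih2 had 169.43 and 159.07 TPM in HD against 68.18 and 81.85 TPM in EH (1.12 ± 0.11, edgeR adjusted p = 0.00311), and Shank1 17.38 and 13.34 against 6.16 and 6.73 TPM (1.42 ± 0.15, edgeR adjusted p = 0.004). The presynaptic metabotropic receptors moved apart: Grm7 had 2.43 and 2.38 TPM in HD against 0.77 and 0.66 TPM in EH, while Grm4 had 12 and 10.47 TPM in HD against 20 and 23.54 TPM in EH. Their log2 fold changes were 1.83 ± 0.23 and -0.96 ± 0.13 (edgeR adjusted p = 0.00509 and 0.0071).

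Chromatin at the members' starts was read from 1 peak list per mark and genotype, so no spread between replicates and no test can be given. A start counted as marked when a region lay within 1 kb of it; for Grin2a, Grin2b, Gria1 and Gria3, which have no RefSeq start in the table used, either end of the gene could count. H3K4me3, the mark of promoters, lay at 8 of 10 members in HD and 9 in wild type, and at the RefSeq start it lay at 5 of the 6 members that have one in each list, against 62.3% and 63.2% of 17492 genes with a RefSeq start. Slc17a8 was the member without it in both lists, and Gria1 had in wild type alone a region of 723 bp at a fold enrichment of 3.51, the authors' value for a peak over its background. Among the starts, H3K4me3 in wild type was most enriched over the end of Grin2b (68.32) and the start of Gria4 (67.06), although Grin2b reached only 1.12 and 1.52 TPM there.

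H3K27ac, a mark of active promoters and enhancers, lay at 4 members in HD and 5 in wild type. At RefSeq starts it lay at 2 of 6 members in each list, against 46.4% and 45.4% of genes. Those 5 were Grin2a, Grin2b, Gria2, Gria3 and Gria4, and Grin2b lacked it in HD, where its RNA had 0.91 and 0.69 TPM. The wild-type region at Grin2b was 449 bp long with an enrichment of 2.14. Grin1 had no H3K27ac region at its start in either list at 9.27 and 11.58 TPM in HD and 9.88 and 8.58 TPM in wild type. The list labelled wild type for H3K27ac has entries named as knockout, and its label was followed.

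H3K27me3, the mark of Polycomb repression, lay at 5 members in HD and 7 in wild type. At RefSeq starts it lay at 3 of 6 members in HD and 5 of 6 in wild type, against 12.5% and 17.7% of genes. In both lists it covered the starts of Slc17a6, Slc17a7 and Grin1 and an end of Grin2a and Grin2b. H3K4me3 was listed there too, except at the second start of Slc17a6 in HD. The regions at Slc17a6 and Slc17a7 were long, 7017 and 3373 bp in HD and up to 5291 and 7335 bp in wild type. Gria2 and Gria4 were marked in wild type alone, by regions of 1240, 773 and 637 bp with −log10 q values of 4.3, 1.6 and 1.9. Within 50 kb of the members, 14 of 27 wild-type H3K27me3 regions (51.9%) overlapped a region of the HD list, as did 51.0% of the whole wild-type list.

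**Figure D4:**
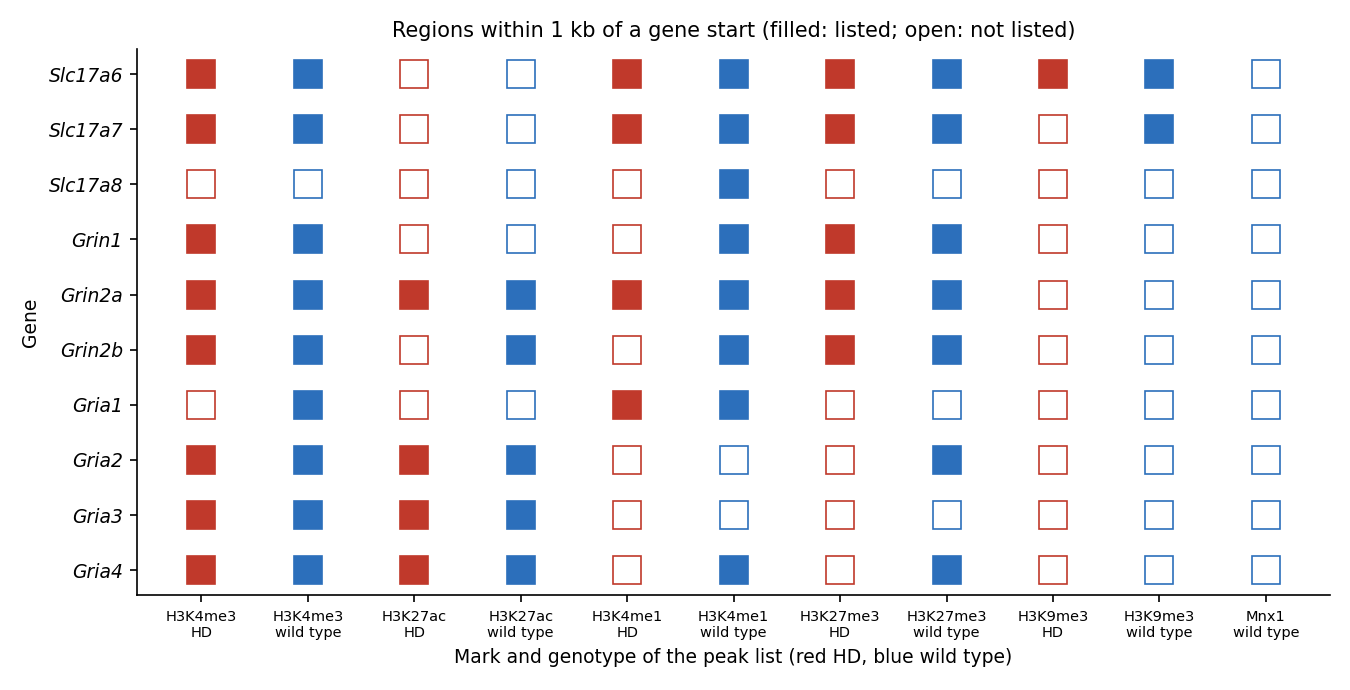
Regions of each mark within 1 kb of a member's start, for HD (red) and wild-type (blue) peak lists side by side; Mnx1 was profiled in wild type alone. A filled square means that a region is listed and an open square that none is. For Grin2a, Grin2b, Gria1 and Gria3 either end of the gene could count. H3K4me3 is filled in both lists for 8 members, and no Mnx1 square is filled.

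Some members could be grouped by these marks and their RNA, and others stood outside the groups. EH has no peak list, so its RNA is set beside marks of the other groups. Gria2, Gria3 and Gria4, with H3K4me3 and H3K27ac in both lists, were the 3 highest in TPM in each motor neuron library. In wild type Gria2 and Gria4 also had H3K27me3 (fold enrichment 3.63 and 2.91), so there they carried these 3 marks as Grin2a and Grin2b did. Slc17a6 and Slc17a7, with H3K4me3 and H3K27me3 and no H3K27ac, stayed at or below 1.4 TPM in every motor neuron library. Grin1 also had H3K4me3 and H3K27me3 and no H3K27ac, at levels of 4 TPM and above, but unlike them no H3K9me3 at its start. Grin2a, with H3K4me3, H3K27ac and H3K27me3 in both lists, had 3.73 and 3.01 TPM in HD and 3.57 and 3.66 TPM in wild type. Grin2b, with the same marks as Grin2a in wild type, had 1.12 and 1.52 TPM there. Slc17a8 and Gria1 had no H3K27me3 in either list and were low too. In wild type they had 0.15 and 0.29 TPM and 0.7 and 0.68 TPM. A pooled list cannot tell marks on the same chromosome copy from marks in different cells of the culture. H3K9me3, a mark of heterochromatin, had no replicate libraries. It lay at the starts of Slc17a6 in HD and of Slc17a6 and Slc17a7 in wild type, against 4.42% and 6.94% of genes.

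Mnx1 regions lay within 50 kb of 5 of 10 members, against 38.3% of 21887 protein-coding genes, and at 0 of 10 starts or ends, 0 of 6 RefSeq starts, against 13.8% of genes with a RefSeq start. The 6 regions amount to 0.192 per 100 kb of the members' windows, against 0.393 for coding genes. Most members are long genes, and the density of the wild-type histone regions near them differed by mark. Per 100 kb it was 1.09 for H3K4me3 against 2.03 for coding genes, 0.672 against 1.4 for H3K27ac, and 3.39 against 6.33 for H3K4me1. It was 0.865 against 0.839 for H3K27me3 and 1.09 against 1.17 for H3K9me3. The part of gene length was not tested. A region inside Slc17a8 (chr10:89619235-89619718, mm10) lay 1531 bp downstream of the first start, with a fold enrichment of 4.61, and overlapped H3K4me1, a mark of enhancers, and none of the other 4 marks in wild type. A region inside Gria2 (chr3:80758641-80759230) lay 43605 bp downstream of the start with an enrichment of 4.32 and overlapped H3K27ac and H3K4me1. A region inside Grin2b (chr6:135869735-135870353), with an enrichment of 4.92, overlapped H3K4me1. The gene table used holds no exons, so whether these lie in introns was not determined.

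The other 3 Mnx1 regions lay outside the members, 2 near Slc17a7 and 1 near Grin1. Near Slc17a7, chr7:45128653-45129187 lay over the ribosomal protein gene Rpl13a, 34734 bp upstream of the start. Near Grin1, chr2:25332419-25332860 lay over the mannosidase gene Man1b1, 13232 bp upstream. Of the members with a region in the gene, Slc17a8 had a log2 fold change of 2.41 ± 0.55, Gria2 -0.04 ± 0.21 and Grin2b -0.38 ± 0.19 in HD against wild type, none of which passed by edgeR (adjusted p = 0.275, 0.988 and 0.977).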

How the data were processed

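RNA-seq (8 libraries) and ChIP-seq (22 libraries, 11 peak lists) were grouped from the labels. The submitters' processing notes name Trim Galore, STAR, RSEM, Bowtie2, SAMtools, featureCounts, Subread, DESeq2 and MACS2 with mm10, without roles. The deposited expression files hold an expected count and a TPM value per gene and library, per the file headers. The authors' peak lists, in MACS2 layout, give each peak its fold enrichment, a ratio, and the −log10 of its q value. There is 1 list per mark and genotype, and how replicate libraries were combined is not given in the sources used here. H3K9me3 had 1 library per genotype, without a replicate. The series has 1 input library per genotype. The antibody list names GFP and none to Mnx1. Per the labels, ChIP libraries came from a ThruPLEX kit.

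The main test was the quasi-likelihood test of edgeR 4.0.16 on rounded expected counts (TMM scaling, filterByExpr, Benjamini-Hochberg over all genes tested) in R 4.3.3: 6 libraries in 1 fit among motor neurons (3 residual degrees of freedom, biological coefficient of variation 0.139), and 8 against ES cells. A standard error is the log2 fold change over the square root of F. Alternatives were DESeq2 1.42.0, limma 3.58.1 on log2(TPM + 1) and log2(TPM + 0.1), no filter, a replicate block, the compared groups alone, and each replicate left out. In simulated data 200 genes were changed, all with mean counts above those of Slc17a7 and Slc17a8. The test recovered 71% of 2-fold and 97% of 4-fold changes for HD against wild type, and 73% and 95% for EH. These shares do not cover genes of lower counts or a comparison with fewer changed genes. Counting intervals are exact binomial (Clopper-Pearson); they cover counting error only, since the reads carry no molecular identifiers.

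Peak entries with the same start and end were counted as 1 region, and a region was near a member within 50 kb of the gene (GRCm38 RefSeq coordinates) by an overlap of 1 bp. Promoter windows are from RefSeq. Protein sequences were not used here, so the planned comparison of proteins was not made. Replicates differed beyond sampling noise in each group. The members, the wider and marker lists and the tests were chosen with earlier results of these data known. The genes named are all 10 members and, per comparison, up to 5 wider genes with the smallest adjusted p whose libraries did not overlap. Some genes that this rule takes, and a gene beside a Mnx1 region, are not reported here.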

Additional observations from a re-analysis of the deposited data

Results flagged for a closer look

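In the direct comparison the HD and EH libraries differed in several of these genes, although the labels give both the same genotype. EH libraries were also deeper, at 39.8 and 39.7 M expected counts against 11.2 and 12.4 M in HD. Line and depth therefore cannot be told apart. Trophoblast and inhibitory markers differed between the lines too, and their part was not tested. By edgeR's quasi-likelihood test the log2 fold change of HD against EH was 1.45 for Grin1, 1.22 for Grin2b, 0.73 for Gria2, 1.03 for Gria3 and 1.33 for Gria4, and -1.65 for Gria1. Of the wider list, it was 1.83 for Grm7, 1.12 for Cnih2, 1.42 for Shank1 and 1.05 for Dlgap3, and -0.96 for Grm4. Each had an edgeR adjusted p under 0.05, as had 11.8% of all genes tested as higher in HD and 9.42% as lower. HD and EH libraries did not overlap for any of them, and the share of all genes without overlap was not computed. For the wider genes this lack of overlap was a condition of being named. With limma on log2(TPM + 1) the calls of Grin2b, Gria1 and Gria2 ended (adjusted p = 0.298, 0.116 and 0.0939). The groups have 2 libraries each, too few to ask whether a single library stands apart.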

How the results depend on the processing

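Of members called, 8 against ES cells became 7 to 9 under the alternatives tried. For HD against wild type the count of 0 became 1 (Slc17a8) with those groups alone, and 0 to 1 with a replicate left out; Slc17a8 entered those groups alone only through HD, where it is high, so that call supports nothing. For EH against wild type the 5 became 2 with limma on log2(TPM + 1) and 2 with log2(TPM + 0.1), 0 without its filter, 3 with a replicate block, 3 with those groups alone, and 0 to 6 with a replicate left out. For HD against EH the 6 became 3, 3 and 2 with the same limma settings, and 2 to 6 with a replicate left out. For the mean of both lines the 0 became 2 with DESeq2, 1 without the count filter, and 0 to 3 with a replicate left out. No member's direction reversed where it was called. Replicates of the same number correlated at -0.14 (HD and EH), 0.1 (HD and wild type) and -0.11 (EH and wild type) in their deviations from group means. With 2 libraries per group these values cannot settle whether such replicates share more than a number. The replicate block gave 3 members for EH against wild type and 4 for HD against EH; with the EH numbers crossed, chosen after seeing the data, the block gave 6 and 7, and 2 for the mean of both lines. Over the wider list, the 15 genes called for EH against wild type became 6, 6 and 2 with the limma settings, 9 with the block, 24 with it crossed, 9 with the groups alone and 1 to 23 with a replicate left out, and the 19 for HD against EH became 11, 11, 4, 12 with the block, 11 with the groups alone and 3 to 27. Over all genes, 27 in HD became 174 with DESeq2 and 336 with the groups alone, 3302 in EH became 2124 with the groups alone, and with a replicate left out these ranged from 0 to 324 and from 96 to 5925. The cause of these shifts was not tested. The count of 5 members near a Mnx1 region changed by less than 1.5 times under every alternative tried. Transporters with 2 to 44 counts per motor neuron library limit what could be detected for Slc17a6 and Slc17a8.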

Other observations

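Other marks near the members differed in how far the HD and wild-type lists overlapped. Within 50 kb of the members 65 of 106 wild-type H3K4me1 regions (61.3%) overlapped one of the HD list, against 68.4% of the whole list, and 23 of 34 wild-type H3K9me3 regions (67.6%) did so, against 44.9%. The lists differ in size, with 90369 H3K4me1 regions in HD and 110851 in wild type and 15427 H3K9me3 regions in HD and 21120 in wild type. No test can be made with 1 list per genotype, and the H3K9me3 lists rest on 1 library each.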
